A study of Mus musculus with 12 samples.

Results

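The suppressors of cytokine signalling (SOCS) are a family of 8 mouse genes, Socs1 to Socs7 and Cish. Their levels were read in all 12 libraries of an RNA sequencing study of primary aortic smooth muscle cells, by matching the Ensembl identifier of each gene, without its version, to the symbol. All 8 were found among the 55822 genes of the table, and all 8 passed the filter on low counts that left 16140 genes for testing.

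SOCS proteins carry an SH2 domain, which binds phosphorylated tyrosines on cytokine receptors and on JAK kinases, and a C-terminal SOCS box, which recruits Elongin B, Elongin C and Cullin 5 into a ubiquitin ligase. Cytokines switch on JAK kinases, JAKs activate STAT transcription factors, and STATs induce several SOCS genes, whose products then dampen the same receptors. In arterial smooth muscle, SOCS1 and SOCS3 are known as brakes on interferon gamma and on gp130 cytokines.

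Cells of the IFNγ/LPS CM group received medium conditioned by bone marrow-derived macrophages that had been primed with 20 ng/mL interferon gamma overnight, given 100 ng/mL lipopolysaccharide (LPS) for 4 hours and washed 4 times with buffer. Cells of the naive CM group received medium of macrophages that had been washed alike but not stimulated. Both media were made over 24 hours in 0.3% serum with 10 ng/mL M-CSF, a macrophage growth factor, and lay on smooth muscle cells that had been starved in 0.3% serum for 48 hours. Exposure lasted 24 hours. Cells of the third group were in regular growth medium, for which the labels give neither the serum content nor whether the cells were starved, so naive CM and regular medium may differ in serum as well as in macrophage products. Each group had 4 libraries, numbered as biological replicates. The sources used here give no strain, sex or age of the mice and do not say whether libraries came from separate animals or cultures, so a p-value measures only the spread among the libraries, which may be technical.

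Library totals ran from 28097496 to 61493375 estimated counts. Smooth muscle markers were detected but low: the summed level of 10 such genes was 122 to 125 CPM (counts scaled to 1e+06 per library after TMM, edgeR's correction for library composition) in IFNγ/LPS CM, while naive CM had 309 to 324 CPM and regular medium 339 to 421 CPM; in bulk RNA, fewer cells of a type and less RNA per cell cannot be told apart. The summed level of 8 adventitial fibroblast markers was 6717 to 7407 CPM in IFNγ/LPS CM. It was 1810 to 1966 CPM in naive CM and 1643 to 1913 CPM in regular medium. Dcn and Ly6a gave most of the sum in IFNγ/LPS CM, with means of 4674 and 2379 CPM. Among the 7 tested 3 were higher than in naive CM: Ly6a 11.1-fold, Pdgfra 4.92-fold and Dcn 2.93-fold. Another 3 were lower, among them Dpt and Pi16, which had 9.87 and 1.68 CPM in naive CM and fell 37.5 and 8.6-fold. The part of fibroblast RNA in the SOCS results was not tested. Of 12 macrophage markers 5 were high enough to test and all 5 were higher in IFNγ/LPS CM than in naive CM. Their sum was 891 to 1003 CPM in IFNγ/LPS CM, 19.7 to 21.4 CPM in naive CM and 13.3 to 15.4 CPM in regular medium, and Mpeg1 alone gave 874 CPM of the first. Some markers were near 0 in IFNγ/LPS CM, with 1 count of Ptprc, 2 of Adgre1, 3 of Spi1, 6 of Itgam and none of Fcgr1. These are counts over its 4 libraries, where Mpeg1 had 123927. Csf1r and Cd68, from the same list, had 656 and 881 counts there, against 44 and 209 in naive CM. The part of macrophage RNA in the SOCS results was not tested. The columns were joined to the conditioned media through their names M0 and M1, read as unstimulated and IFNγ/LPS-treated macrophages, and every direction given here rests on that reading.

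The sequences before the genes were searched for the letters that STAT dimers and interferon regulatory factors are known to bind, because Socs1, Socs3 and Cish are textbook targets of these factors. RefSeq windows on GRCm38.p6 were searched for 4 members, Socs1, Socs3, Socs4 and Cish. Socs2, Socs5, Socs6 and Socs7 were not searched. In the 250 bases before its start, on the minus strand at chr16:10785537-10785786, Socs1 held 2 overlapping copies of GAAA, any 2 bases, GAAA, the core of an interferon response element, shown in capitals and lying 83 to 74 and 77 to 68 bases before the start.

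Socs1: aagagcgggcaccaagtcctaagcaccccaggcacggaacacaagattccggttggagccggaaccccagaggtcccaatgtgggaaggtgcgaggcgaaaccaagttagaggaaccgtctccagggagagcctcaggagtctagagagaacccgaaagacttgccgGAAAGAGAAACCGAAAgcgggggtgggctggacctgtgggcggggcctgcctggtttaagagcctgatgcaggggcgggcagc

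That motif was present, on either strand, in 2.98% of 32851 windows of all genes. Socs3 held 1 copy of TTCNNNGAA, the spacing that STAT dimers bind, 154 to 146 bases before its start on chromosome 11 (minus strand, 117969512 to 117969520); this motif reads the same on both strands and was present in 7.02% of windows. Cish held 2 copies of TTCNNNGAA, not before but just after its RefSeq start, at bases 1 to 9 and 12 to 20, in the stretch chr9:107296654-107296683 on the plus strand; with the 50 bases after the start included, a search added after the values were seen, 8.3% of windows held the motif. The matches are shown in capitals with the bases around them.

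Socs3: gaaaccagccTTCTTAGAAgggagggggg
Cish: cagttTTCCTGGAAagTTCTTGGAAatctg

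None of the 4 windows held the wider spacing that STAT6 prefers, with 4 free bases between TTC and GAA, which 5.85% of windows held, and the window of Socs4 held none of the 3 motifs. In GENCODE M21 the Socs3 and Cish genes begin further upstream, at 117970047 and 107296026, so these 3 matches lie inside the GENCODE genes. A match is a description of letters and not of a bound site.

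The first comparison asked what medium of IFNγ/LPS-treated macrophages changed relative to medium of naive macrophages. Socs1, Socs3 and Cish were far higher in IFNγ/LPS CM, Socs2 was 5.01-fold lower, and Socs4 to Socs7 were at most 1.36-fold higher under the scaling used. Of the 8 members 7 passed an adjusted p of 0.05 in edgeR's quasi-likelihood test, 6 higher and 1 lower, where 71.9% of all genes tested passed, 36.1% higher and 35.8% lower. With a change of at least 2-fold as a second condition 4 members passed, 3 higher and 1 lower, where 29% of all genes did, 13.9% higher and 15% lower. The median size of the change (log2, sign ignored) was 1.39 over the 8 members and 0.51 over all genes. No member lay near 1.39: Socs4 to Socs7 were at 0.45 or less, below the median of all genes. Next in size was Socs2 at -2.32. The groups did not overlap in 7 members, and in 69.5% of all genes.

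Socs1, which binds JAK1, JAK2 and TYK2 and blocks their catalytic site, had the largest rise of the family. It had 95.4, 90.9, 88.5 and 88.1 CPM in the 4 IFNγ/LPS CM libraries, against 0.603, 0.631, 0.546 and 0.593 CPM in the naive CM libraries. Every IFNγ/LPS CM library lay far above every other library, and the transcript was close to absent elsewhere: its naive CM level rests on 120 counts over 4 libraries. The log2 fold change was 7.24 with an SE of 0.0861, a 151-fold rise (edgeR adjusted p = 1.23e-22), and 1.18% of all genes rose at least as much.

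Socs3 binds gp130, the shared receptor chain of interleukin-6 cytokines, and blocks the JAK attached to it. With IFNγ/LPS CM it had 112, 108, 106 and 105 CPM, and with naive CM 12.3, 11.6, 11.7 and 12.0 CPM. The groups did not overlap, and unlike Socs1 the gene was already expressed at a moderate level in naive CM. It rose 9.04-fold (log2 fold change of 3.18 with an SE of 0.0641; edgeR adjusted p = 3.98e-19), and 4.08% of all genes rose at least as much. Within IFNγ/LPS CM both Socs1 and Socs3 were highest in replicate 1 and lowest in replicate 4, and the count of Socs1 over that of Socs3, a ratio that no scaling of the libraries can change, stayed within 0.837 and 0.851. In naive CM this ratio was 0.0467 to 0.0543.

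Cish, the first member described and a target of STAT5 that limits signals from cytokine receptors, was the least abundant of the 3 that rose strongly. Its libraries had 19.9, 18.3, 24.2 and 23.5 CPM with IFNγ/LPS CM, against 1.02, 0.696, 1.03 and 1.19 CPM in naive CM. The groups were well apart, while the libraries varied more than those of Socs1 and Socs3: the coefficient of variation was 13.3% in IFNγ/LPS CM and 21.0% in naive CM, where 194 counts stood behind the level. The rise was 22.0-fold (log2 fold change of 4.46 with an SE of 0.238; edgeR adjusted p = 2.25e-09), and 2.58% of all genes rose at least as much. Exons of Cish overlap those of 2 annotated transcripts on the other strand, Gm17041 with no count in any library and Gm17040 with 27 counts in IFNγ/LPS CM and 7 in naive CM, so that almost no counts were given to them.

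Socs2, which restrains growth hormone receptor signalling and whose loss gives oversized mice, was the member that fell. Levels were 10.1, 10.4, 10.5 and 9.97 CPM with IFNγ/LPS CM, against 53.5, 49.7, 50.8 and 51.3 CPM in naive CM. The 4 libraries of each group lay close together and the groups were far apart. The log2 fold change was -2.32 with an SE of 0.0487 (edgeR adjusted p = 7.15e-19), and 5.5% of all genes fell at least as much. Cish and Socs2, which are both known STAT5 targets in other cells, thus moved in opposite directions: the count of Cish over that of Socs2 was 1.76 to 2.36 in IFNγ/LPS CM and 0.0140 to 0.0231 in naive CM.

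**Figure D1:**
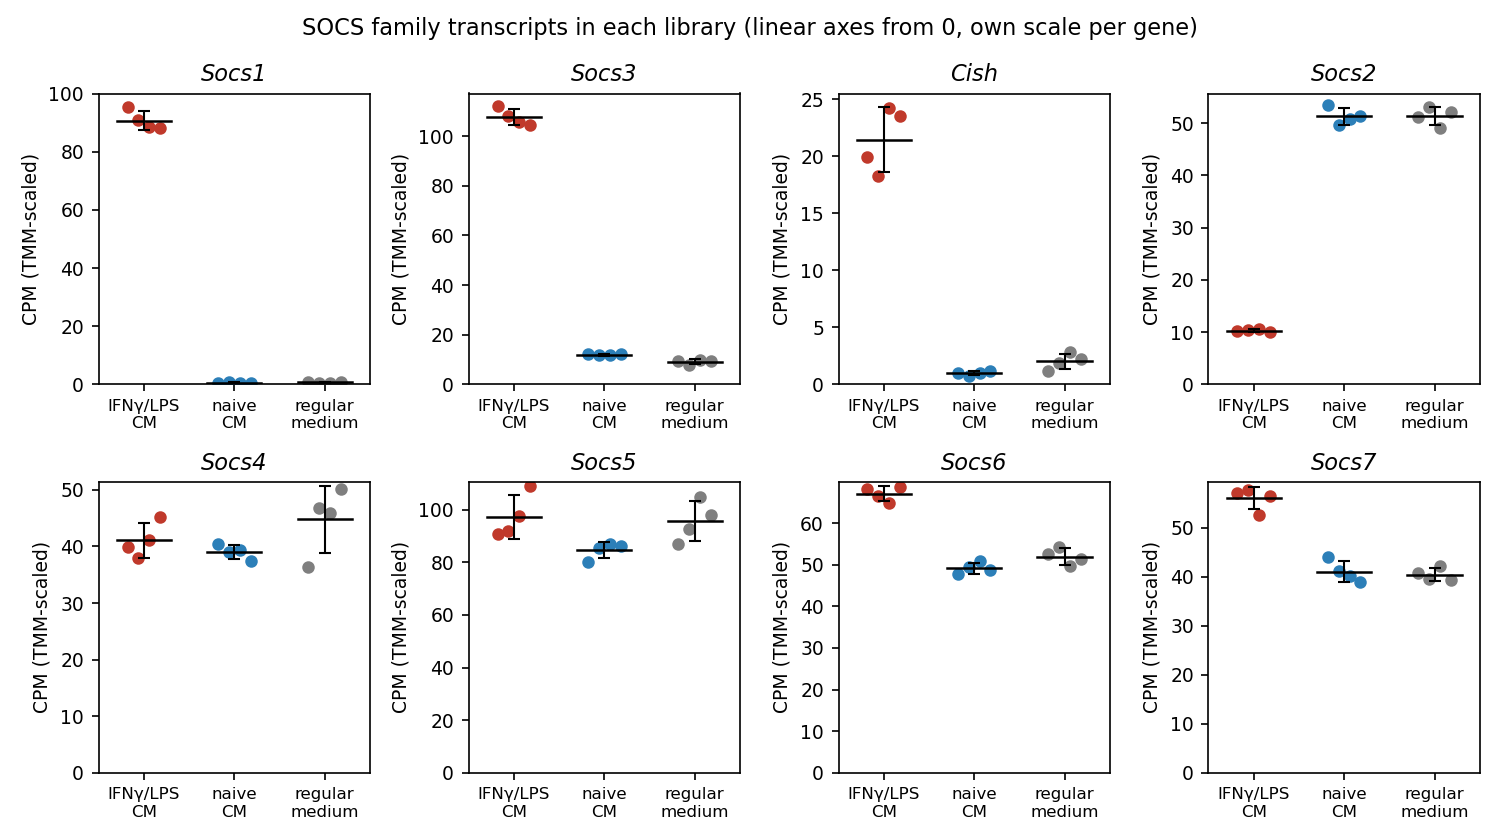
CPM of each member in each of the 12 libraries (points, 4 a group), with the group mean and SD as black bars; every axis is linear and starts at 0, with its own scale. In the upper row Socs1, Socs3 and Cish stand high in IFNγ/LPS CM and Socs2 stands low at about 10 CPM, while in the lower row the 3 groups of Socs4 to Socs7 lie near each other.

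The other 4 members, with long N-terminal regions, are less often tied to JAK signalling. Socs6, which binds the receptor KIT, had 68.2, 66.4, 64.8 and 68.8 CPM with IFNγ/LPS CM, against 47.7, 49.5, 50.8 and 48.6 CPM in naive CM. Socs7, which binds insulin receptor substrates, had 57.2, 57.8, 52.7 and 56.6 CPM with IFNγ/LPS CM, against 44.1, 41.2, 40.1 and 39.0 CPM in naive CM. Neither gene's groups overlapped, and both were 1.36-fold higher on this scaling (log2 fold change 0.45 each; SE 0.0416 and edgeR adjusted p = 1.01e-08 for Socs6, SE 0.0483 and adjusted p = 8.7e-08 for Socs7). Scaled by library totals instead, neither was called, with log2 fold changes of 0.06 each (adjusted p = 0.231 for Socs6 and 0.246 for Socs7). The count of Socs6 over that of Socs7 was 1.15 to 1.23 in IFNγ/LPS CM and 1.08 to 1.27 in naive CM, ranges that overlap.

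Socs5, a regulator of epidermal growth factor receptor and interleukin-4 signalling, had 90.7, 91.8, 97.5 and 109 CPM with IFNγ/LPS CM, against 80, 85.6, 87.0 and 86.1 CPM in naive CM. Its groups did not overlap, but the change was small, 1.15-fold (log2 fold change of 0.20 with an SE of 0.0615; edgeR adjusted p = 0.00752), and its direction hung on the scaling: with library totals it was -0.19 (adjusted p = 0.00975). Socs4, also a regulator of the epidermal growth factor receptor, had 38 to 45.3 CPM in IFNγ/LPS CM and 37.4 to 40.4 CPM in naive CM, with a log2 fold change of 0.07 and an approximate 95% interval of -0.09 to 0.23 (edgeR adjusted p = 0.437). With library totals it was called lower, at -0.31 (adjusted p = 0.0015). The ratio of Socs6 to Socs4 counts, free of scaling, was 1.64 ± 0.108 in IFNγ/LPS CM and 1.26 ± 0.0554 in naive CM (mean ± SD, n = 4 each) with no overlap between the groups, so these 2 genes changed unequally.

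The scaling matters here because the TMM factors averaged 0.836 for IFNγ/LPS CM, 1.09 for naive CM and 1.09 for regular medium. With library totals the median log2 fold change over the 16140 genes was -0.38, in place of 0.0039 with TMM, and the calls over all genes split into 3279 higher and 9371 lower in place of 5830 and 5781. The family split into 3 higher and 3 lower in place of 6 and 1. The rises of Socs1, Socs3 and Cish and the fall of Socs2 remained, at log2 fold changes of 6.85, 2.79, 4.07 and -2.71 with library totals.

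**Figure D2:**
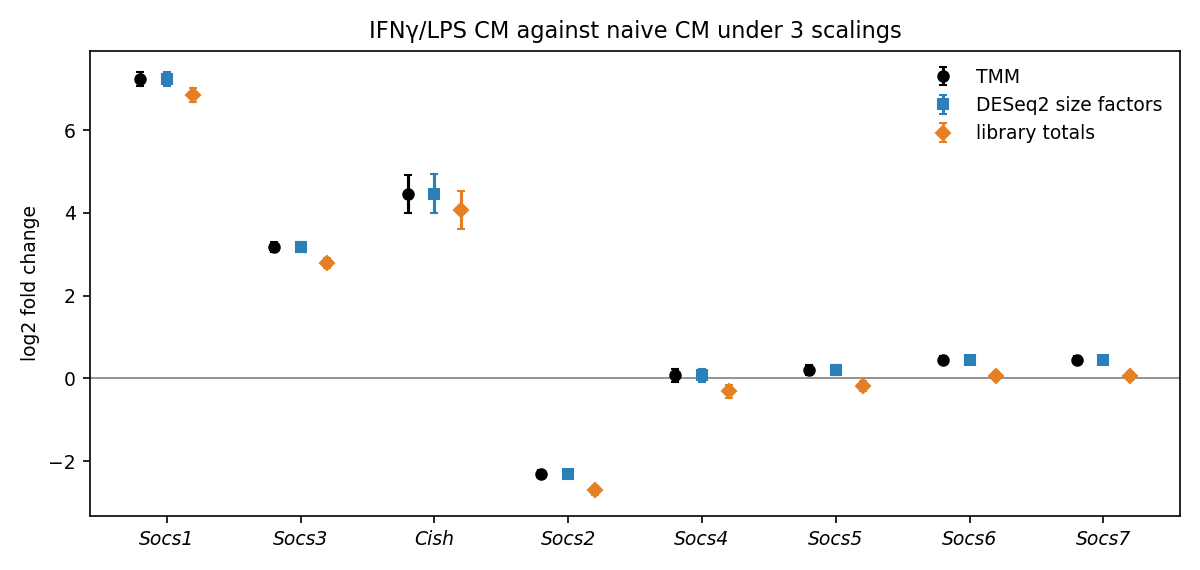
Log2 fold change of each member in IFNγ/LPS CM against naive CM with TMM, DESeq2 size factors and library totals as the scaling; bars are approximate 95% intervals. TMM and DESeq2 size factors give nearly the same values, and library totals shift every member down, which takes Socs4 and Socs5 below 0 and leaves Socs6 and Socs7 at 0.06.

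The second comparison asked what medium of unstimulated macrophages changed relative to regular medium, and it shares the naive CM libraries with the first. Socs3 rose slightly, and Cish and Socs5 fell. Of the 8 members 3, or 37.5%, passed the adjusted p of 0.05, 1 higher and 2 lower, where 34.7% of all genes passed, 18.3% higher and 16.4% lower, so the family's share was near that of all genes. With at least 2-fold required none of the 8 passed (0 higher and 0 lower), where 3.82% of all genes did, 2.87% higher and 0.948% lower. Cish, at a log2 fold change of -0.99, lay just short of 2-fold, and in 6 of the 20 alternative fits it was past 2-fold and called, which makes that count 1: in the DESeq2 test and without naive CM replicate 1, 3 or 4 or regular medium replicate 1 or 2. The groups did not overlap in 1 member, Socs3, and in 32.7% of all genes.

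Socs3 had 12.3, 11.6, 11.7 and 12.0 CPM in naive CM, against 9.55, 7.66, 9.82 and 9.56 CPM in regular medium. All naive CM libraries lay above all regular medium libraries (1.31-fold, log2 fold change of 0.39 with an SE of 0.0666; edgeR adjusted p = 0.000148). Regular medium replicate 2 was the lowest, and without it the log2 fold change was 0.31 (adjusted p = 0.000166).

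Cish had 1.02, 0.696, 1.03 and 1.19 CPM in naive CM, against 1.15, 1.86, 2.80 and 2.21 CPM in regular medium. It fell by 0.99 on the log2 scale (SE 0.256, edgeR adjusted p = 0.00981), although replicate 1 of regular medium lay below the highest naive CM library. The call held in all 20 alternative fits, with adjusted p of 0.000135 to 0.0372, while an exact two-sided permutation test of the 8 CPM values gave p = 0.0571, above the smallest p of 0.0286 that 4 against 4 allows. Among all genes 1.58% fell at least as much.

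Socs5 averaged 84.7 ± 3.18 CPM in naive CM, against 95.6 ± 7.61 CPM with regular medium (SD, n = 4 each), 1.13-fold lower with overlapping groups (log2 fold change -0.17, SE 0.0612, edgeR adjusted p = 0.0364). This call was lost in 7 of the 20 alternatives: without any single library of naive CM (adjusted p = 0.127, 0.0657, 0.0517 and 0.0613 without replicates 1 to 4) and without regular medium replicate 2, 3 or 4 (adjusted p = 0.0534, 0.116 and 0.0782). Socs4 was 39.1 ± 1.26 CPM in naive CM and 44.8 ± 5.89 CPM in regular medium and was not called (log2 fold change -0.20, edgeR adjusted p = 0.0717), but it was called without regular medium replicate 1 (log2 fold change -0.29, adjusted p = 0.000768). That replicate was the lowest of its group in Socs4, Socs5 and Cish, at 36.4, 86.8 and 1.15 CPM.

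Socs1, Socs2, Socs6 and Socs7 were not called between naive CM and regular medium. Socs1 had 0.461 to 0.744 CPM in regular medium, resting on 128 counts, and its log2 fold change was -0.06 with an approximate 95% interval of -0.33 to 0.21. Socs2 was 51.4 ± 1.59 CPM in naive CM and 51.4 ± 1.71 CPM in regular medium (interval of the log2 fold change -0.09 to 0.08). For Socs6 the interval was -0.16 to 0.00 and for Socs7 it was -0.07 to 0.12.

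The third comparison set IFNγ/LPS CM against regular medium and shares libraries with both others. Of the 8 members 6 passed, 5 higher and 1 lower, where 71.8% of all genes passed, 35.4% higher and 36.4% lower. With at least 2-fold required 4 passed, 3 higher and 1 lower, where 28.1% of all genes did, 13.7% higher and 14.4% lower. The groups did not overlap in 6 members, and in 65.2% of all genes. Socs1 was 90.7 ± 3.32 CPM in IFNγ/LPS CM and 0.614 ± 0.133 CPM in regular medium (145-fold, log2 fold change 7.18, SE 0.0855). Socs3 was 108 ± 3.29 CPM in IFNγ/LPS CM and 9.15 ± 1.0 CPM in regular medium (11.9-fold, log2 fold change 3.57). Cish was 21.5 ± 2.86 CPM in IFNγ/LPS CM and 2.01 ± 0.689 CPM in regular medium, an 11-fold rise (log2 fold change 3.46, SE 0.220). Socs2 was 10.3 ± 0.246 CPM in IFNγ/LPS CM, 5.02-fold lower than in regular medium (log2 fold change -2.33).

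The edgeR adjusted p-values of these 4 genes were 1.17e-22, 9.08e-20, 1.4e-08 and 6.68e-19 in that order. Socs6 and Socs7 were higher than in regular medium (log2 fold changes 0.37 and 0.47, edgeR adjusted p = 1.76e-07 and 4.35e-08), but with library totals Socs6 was at -0.02 and Socs7 at 0.09 and neither was called. Socs4 and Socs5 were not called, at log2 fold changes of -0.12 and 0.03 (edgeR adjusted p = 0.183 and 0.706). Socs4 was called lower without regular medium replicate 1 (log2 fold change -0.22, adjusted p = 0.00289), and with library totals both were called lower, at -0.51 for Socs4 (adjusted p = 1.31e-05) and -0.36 for Socs5 (adjusted p = 3.07e-05).

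**Figure D3:**
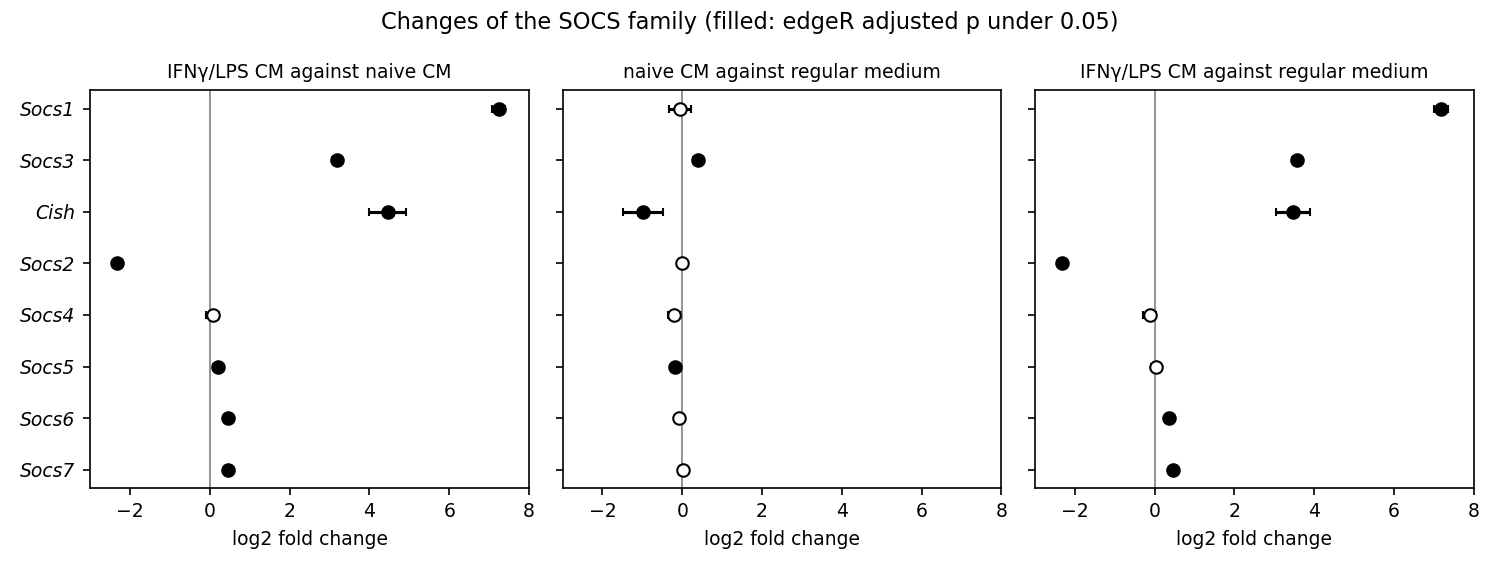
Log2 fold change of each member in the 3 comparisons, with approximate 95% intervals, where many are narrower than the point; filled points passed an edgeR adjusted p of 0.05. Socs1, Socs3, Cish and Socs2 lie far from 0 wherever IFNγ/LPS CM is compared, and in naive CM against regular medium all members lie between -0.99 and 0.39.

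To set the members against each other, CPM were divided by gene length, taken as the union of annotated exons in GENCODE M21. In IFNγ/LPS CM Socs3 led with 37.3 ± 1.14 CPM per kilobase, followed by Socs1 with 31.2 ± 1.14 and Socs5 with 15.2 ± 1.31. Socs7, Socs4, Socs6, Cish and Socs2 came after them, at 7.72, 5.97, 5.91, 3.35 and 1.08 CPM per kilobase, and of all neighbours in this order Socs4 and Socs6 were the pair whose libraries overlapped. In naive CM the order was a different one. Socs5 led with 13.2 ± 0.496 CPM per kilobase, then Socs4, Socs7 and Socs2 between 5.39 and 5.68, Socs6 at 4.33 and Socs3 at 4.12, while Socs1 at 0.204 and Cish at 0.153 closed the list. Libraries of Socs4 and Socs7, of Socs7 and Socs2 and of Socs6 and Socs3 overlapped there. In regular medium the order was like that of naive CM down to Socs3 at 3.16 CPM per kilobase, with Cish at 0.312 and Socs1 at 0.211 last and overlapping; Socs4 and Socs7, and Socs7 and Socs2, overlapped too.

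Summed over the 8 genes the level was 108 ± 1.72 CPM per kilobase with IFNγ/LPS CM, 38.7 ± 0.252 with naive CM and 40.6 ± 1.88 with regular medium (SD, n = 4 each). Socs1, Socs3 and Cish made up 66.7 ± 1.53% of that sum with IFNγ/LPS CM, 11.6 ± 0.354% with naive CM and 9.08 ± 0.889% with regular medium. The share of Socs2 was 1.00 ± 0.0386% with IFNγ/LPS CM, 13.9 ± 0.415% with naive CM and 13.3 ± 0.869% with regular medium. Per kilobase of the longest transcript its share would be 1.91% with IFNγ/LPS CM, 22.0% with naive CM and 21.0% with regular medium. Socs5 gave 34.1% of the sum in naive CM and 36.6% in regular medium, the largest share in both.

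Length is the uncertain part of these levels. Socs2 has 14 annotated transcripts whose exons cover 9531 bases, while its longest transcript has 4242 bases, and Socs6 has 9 transcripts with 11349 and 6036 bases. Per kilobase of the longest transcript Socs2 would be second in naive CM, at 12.1 CPM per kilobase, and Socs6 next, at 8.15, whereas Socs3, Socs1 and Socs5 still lead in IFNγ/LPS CM. Which transcripts were expressed cannot be read from counts per gene.

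**Figure D4:**
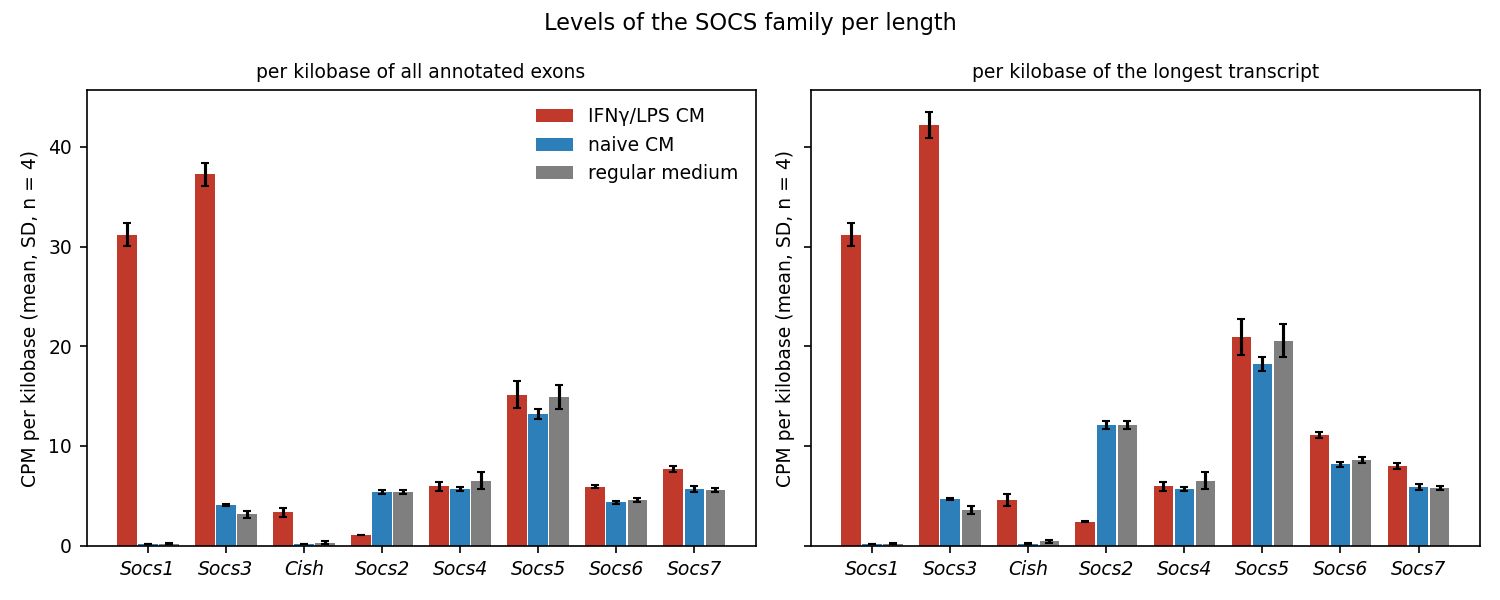
CPM per kilobase of each member by group (bars, mean with SD, n = 4), with length taken as all annotated exons on the left and as the longest transcript on the right. Socs3 and Socs1 are the tallest bars in IFNγ/LPS CM under both lengths, Socs5 is the tallest in naive CM and regular medium, and Socs2 and Socs6 depend most on the length used.

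In the GRCm38 build with GENCODE M21, Socs1 lies on chromosome 16 at 10782240 to 10785536 and Socs3 on chromosome 11 at 117966079 to 117970047, both on the minus strand and compact, with exon unions of 2908 and 2891 bases. Cish lies on chromosome 9 at 107296026 to 107302784 on the plus strand. Socs2 lies on chromosome 10 at 95385362 to 95417180 on the minus strand. Socs7 is also on chromosome 11, at 97362551 to 97398542, and Socs4, Socs5 and Socs6 are on chromosomes 14, 17 and 18.

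Genes with the most similar profile were sought for each member by the root mean square difference of log2 CPM, centred on its mean, over the 12 libraries. Nearest to Socs1 were Mx2 and Gbp7, both interferon-induced GTPases, at differences of 0.124 and 0.165 log2 units. Nearest to Socs3 were Nod1, a sensor of bacterial peptidoglycan, and Gsap, at 0.0737 and 0.0927. Nearest to Cish were Atf3, a stress-induced transcription factor, and Ces2f, a carboxylesterase, at the wider differences of 0.328 and 0.330. Like Cish they were lower in naive CM than in regular medium, with log2 fold changes of -0.83 for Atf3 and -1.35 for Ces2f. The search by profile favours such a shared direction. Nearest to Socs2 were Tmem64 and Rgs10, a regulator of G protein signalling, at 0.0492 and 0.0671. For Socs4 to Socs7 the nearest genes lay at 0.0351 to 0.0733 and included Pdcd6ip, Gsk3b, Pcnx4, Tnrc6a, Sgpp1, Leprotl1 and Chmp2a. These are descriptions over 12 libraries that fall into 3 groups.

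Lists of the pathway that SOCS proteins restrain were read in IFNγ/LPS CM against naive CM beside all genes, of which 36.1% rose and 35.8% fell. Of 10 JAK and STAT genes tested 8 rose and 1 fell, with a median log2 fold change of 1.22 beside 0.0039 over all genes. Among them Stat2, a factor of the type I interferon response, rose 16.8-fold, and Stat3, the main factor of gp130 cytokines, rose 2.98-fold. Jak2, a kinase that SOCS1 and SOCS3 inhibit, rose 10.6-fold to 506 ± 9.59 CPM with IFNγ/LPS CM, against 47.7 ± 1.15 CPM with naive CM, while Jak1 and Jak3 rose 1.81 and 4.35-fold. The STAT5 genes were not among those that rose: Stat5a fell to 26.7 ± 0.754 CPM with IFNγ/LPS CM, against 34.6 ± 1.41 CPM with naive CM (log2 fold change -0.37, edgeR adjusted p = 3.43e-06), and Stat5b was not called (log2 fold change -0.06, adjusted p = 0.211). With library totals 8 rose and 2 fell. Stat4, with no count in IFNγ/LPS CM and 18 in naive CM, was too low to be tested.

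Of 19 receptor chains tested 15 rose and 2 fell, with a median log2 fold change of 0.86 (10 and 3 with library totals). The rises of Il13ra1, Osmr and Lifr were the largest, at 31.9, 9.68 and 8.81-fold; Osmr and Lifr pair with gp130, to which SOCS3 binds. Il11ra1 and Ifnlr1 fell 1.39 and 1.33-fold. Of 13 ligand genes tested 7 rose and 3 fell (median 0.46): Csf2 had 2362 counts in IFNγ/LPS CM and 1 in naive CM, Il6 had 9378 and 23 counts in the same order, Il7 rose 5.14-fold and Ctf1, cardiotrophin, fell 4.45-fold.

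Of 11 ubiquitin ligase genes tested 4 rose, 1 fell and 6 were not called, where 36.1% of all genes rose and 35.8% fell. Their median log2 fold change was 0.0058. The list was wider than the partners of the SOCS box, since it held Cul2, Rbx1 and Vhl beside Cul5 and the Elongins. Vhl and Cul2 were among the 4 that rose, so these counts do not describe SOCS box partners alone. Vhl, Arih2 and Ube2f rose 3.59, 1.84 and 1.67-fold, and Cul5 itself fell by 0.13 on the log2 scale (edgeR adjusted p = 0.00969). With library totals 7 of the 11 were called lower. Of 13 other negative regulators of the pathway tested 4 rose and 5 fell (median 0.064; 2 and 9 with library totals), a share of calls near the 71.9% of all genes. Usp18, which blocks the type I interferon receptor, stood at 475 ± 30.9 CPM in IFNγ/LPS CM and 0.939 ± 0.226 CPM in naive CM, and Ptpn2, a phosphatase of JAK1, rose 4.32-fold, whereas Pdlim2 and Dusp1 fell 6.46 and 2.44-fold.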

How the data were processed

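The deposited table holds 1 expected count (an estimated count) per gene and library; its values are whole and were taken as rounded Salmon estimates. Salmon 1.10.1 and the build mm10 are named in the submitters' processing notes, while the gene annotation and the step from transcripts to genes are not given there. Per the labels' protocols, libraries came from the Illumina Stranded mRNA Prep kit and were read as 150 bp pairs. Symbols came from GENCODE M21 by identifier without version (51344 of 55822 matched). The members, lists and tests were chosen with earlier results of these data known.

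In R 4.3.3, genes were filtered by filterByExpr, scaled by TMM and tested with edgeR 4.0.16 (quasi-likelihood, robust) in 1 model of 12 libraries, with Benjamini-Hochberg adjustment over 16140 genes and a threshold of 0.05. SE is the log2 fold change over the square root of F, and approximate intervals are 1.96 SE. Log2 CPM for similarity used a prior count of 2. The scripts were tested on simulated data. Same-numbered libraries were not treated as paired, since their deviations from group means correlated at -0.0637 to 0.0679 over 12 pairs, none above 0.1. Named were all members, all JAK and STAT genes, up to 3 rises and 2 falls per other list among called genes of at least 1 CPM, and 2 similar genes per member. Some genes that this rule names are not reported here. Alternatives were other scalings (DESeq2 1.42.0 size factors, library totals), filters, DESeq2, limma 3.58.1 voom, only the groups compared, a replicate block, and each library left out.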

Additional observations from a re-analysis of the deposited data

Results flagged for a closer look

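Socs3 in regular medium replicate 2 stood at 7.66 CPM, below the 9.55 to 9.82 CPM of the other 3 libraries of that group, a gap of 0.875 of the group's range, which is past Dixon's 95% limit for 4 samples. It was the 1 group so marked among 24 examined (8 genes in 3 groups), where chance marks about 1 in 20. The rise of Socs3 in naive CM against regular medium kept its call without this library (log2 fold change 0.31, edgeR adjusted p = 0.000166).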

How the results depend on the processing

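In 20 alternative fits the rises of Socs1, Socs3 and Cish and the fall of Socs2 kept direction and call in both comparisons of IFNγ/LPS CM, with log2 fold changes against naive CM of 6.85 to 7.27 for Socs1, 2.79 to 3.19 for Socs3, 4.07 to 4.58 for Cish and -2.71 to -2.30 for Socs2. Library totals changed the sign of Socs4 (-0.31) and Socs5 (-0.19) against naive CM and of Socs5 (-0.36) and Socs6 (-0.020) against regular medium. With at least 2-fold required, 4 members were called against naive CM in place of 7, and 0 in place of 3 in naive CM against regular medium. Leaving out 1 library at a time gave 7 members called in the first comparison, 2 to 4 in the second and 6 to 7 in the third. Values near 0 changed sign in uncalled members: in naive CM against regular medium Socs1 (-0.14 to 0.029 over these fits), Socs2 (-0.024 to 0.013; 0.0042 with no filter and 0.016 with only the groups compared) and Socs7 (-0.0048 to 0.049), and in IFNγ/LPS CM against regular medium Socs5 (-0.032 to 0.071). With the replicate number as a block 7, 3 and 6 members were called in the 3 comparisons, as without it. Depth limits Socs1 and Cish outside IFNγ/LPS CM, where 120 to 385 counts a group stood behind them.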

Other observations

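Of 18 other genes for proteins with a SOCS box tested in IFNγ/LPS CM against naive CM 10 rose and 7 fell, where 36.1% of all genes rose and 35.8% fell, with a median log2 fold change of 0.25, and with library totals 5 rose and 8 fell. Spsb1 stood at 37.7 ± 1.24 CPM in IFNγ/LPS CM and 6.93 ± 0.599 CPM in naive CM (5.46-fold, edgeR adjusted p = 8.79e-16). Its relative Spsb2 stood at 4.39 ± 0.269 CPM and 16.2 ± 1.1 CPM in the same order (3.69-fold lower, edgeR adjusted p = 6.74e-13). Asb13 rose 4.11-fold and Rab40b fell 5.79-fold.

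Of 15 genes tested whose products SOCS proteins bind 11 rose and 2 fell, beside the same shares of all genes, with a median of 0.55. With library totals 8 rose and 4 fell. This list shares genes with those above, such as Jak2 and Il6st, so its count is not separate from theirs. Irs1, the insulin receptor substrate, stood at 9.71 ± 0.511 CPM in IFNγ/LPS CM and 81.9 ± 0.848 CPM in naive CM (8.44-fold lower, edgeR adjusted p = 1.29e-20), and Il6st, which encodes gp130, stood at 1473 ± 51.8 CPM and 651 ± 17.4 CPM (2.26-fold higher). Of 7 known targets of STAT5 or growth hormone 4 rose and 3 fell, where 36.1% of all genes rose and 35.8% fell. Pim2 and Pim1 rose 7.48 and 3.52-fold. Igf1 stood at 3.84 ± 1.56 CPM in IFNγ/LPS CM and 42.2 ± 4.59 CPM in naive CM (11-fold lower, edgeR adjusted p = 1.31e-07). Of 14 known STAT3 targets all 14 rose, beside the same shares of all genes (13 rose and 1 fell with library totals). Their median was 2.74, beside 0.0039 over all genes. Activity of STAT3 was not tested.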
